A study of Mus musculus with 6 samples.

Results

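The UDP-glucuronosyltransferases of the Ugt1a and Ugt2 families were described in the livers of mice with and without Trim24. The set held 10 genes, taken by symbol from the 23284 genes of the deposited count tables: Ugt1a1, Ugt1a5, Ugt1a6a, Ugt1a9, Ugt2a3, Ugt2b1, Ugt2b5, Ugt2b34, Ugt2b35 and Ugt2b36. Total liver RNA had been sequenced in 3 libraries from Trim24-/- mice (KO1, KO2 and KO3) and 3 libraries from wild type mice (WT1, WT2 and WT3). All mice were 8 weeks old and of the C57BL6/J strain, and no treatment is given for either group. Trim24 encodes a cofactor of nuclear receptors. The labels do not name the deleted part of the gene, the origin of the knockout line or say that each replicate was a mouse of its own. The p-values therefore describe the scatter among these libraries only.

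These enzymes sit in the membrane of the endoplasmic reticulum and attach glucuronic acid, carried by UDP-glucuronic acid, to bilirubin, steroids, phenols and drugs, which makes them water-soluble for export into bile or blood. The Ugt1a genes form a single cluster in which each gene has its own promoter and first exon, spliced to exons that all of them share, whereas the Ugt2 genes are separate neighbouring genes. In the liver their transcription is known to respond to the receptors CAR, PXR, PPARA and AHR and to NRF2.

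Ugt1a1, the enzyme that conjugates bilirubin, and Ugt1a5 were lower in the Trim24 knockout, by 2.30-fold and 3.59-fold. Ugt1a9, whose human counterpart conjugates phenols, was 1.51-fold higher, close to the threshold of the test. Ugt1a6a and all 6 Ugt2 members did not pass it. Thus 3 of the 10 members were called at an edgeR adjusted p under 0.05, 1 of them higher and 2 lower, against 5.73% of the 9180 genes tested, 3.08% higher and 2.65% lower. All 10 members had passed the filter on low counts.

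The RefSeq promoters of the 3 members that passed the test are shown because the Ugt1a genes share all exons but the first, so that the start of each is what sets it apart. Each is the stretch of 250 bases before the start of the gene on build GRCm38.p6, plus strand, 5′ to 3′. Capitals mark AGGTCA (a motif of nuclear receptors) or GCGTG (the core bound by AHR with ARNT), searched on both strands with no overlap between the hits.
Ugt1a1, chr1:88211709-88211958: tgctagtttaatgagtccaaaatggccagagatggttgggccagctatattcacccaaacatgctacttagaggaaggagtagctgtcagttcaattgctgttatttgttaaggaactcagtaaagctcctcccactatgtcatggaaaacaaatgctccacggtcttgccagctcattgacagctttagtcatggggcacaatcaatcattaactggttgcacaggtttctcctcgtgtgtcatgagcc
Ugt1a5, chr1:88165762-88166011: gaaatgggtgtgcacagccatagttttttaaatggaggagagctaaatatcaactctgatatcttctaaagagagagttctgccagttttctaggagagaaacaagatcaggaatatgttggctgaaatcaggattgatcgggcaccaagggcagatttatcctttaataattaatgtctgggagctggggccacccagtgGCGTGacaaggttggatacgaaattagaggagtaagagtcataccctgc
Ugt1a9, chr1:88070529-88070778: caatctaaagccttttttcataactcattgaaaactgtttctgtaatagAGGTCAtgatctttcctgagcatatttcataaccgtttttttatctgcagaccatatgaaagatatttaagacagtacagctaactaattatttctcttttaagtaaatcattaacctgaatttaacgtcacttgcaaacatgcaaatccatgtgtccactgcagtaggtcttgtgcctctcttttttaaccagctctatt
All 10 members matched an entry of the RefSeq table. AGGTCA was present in 4 of 10 members, against 14.0% of 32851 RefSeq promoters: in Ugt1a9 at 201 bases before the start, Ugt2b5 at 22, Ugt2b35 at 215 and Ugt2b36 at 25. The hits in Ugt2b5 and Ugt2b36 lie in the same run of letters, in the 2 members with the most alike promoters (60.0% identical). The 4 hits are therefore not independent, and of these members only Ugt1a9 was called. GCGTG was found in Ugt1a5, at 49 bases, in 1 of 10 members against 28.2% of promoters. The antioxidant response core TGACNNNGC, which NRF2 binds, and the TATA box TATAAA were in 0 of the 10, against 10.2% and 12.4%. The window of Ugt1a1 held none of the motifs searched. These are matches of letters, and binding was not measured.

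Few of the counted reads lay in genes, from 4.22% in WT1 to 6.69% in KO3. Between 93.3% and 95.8% of counted reads per library lay in no gene. The cause was not tested, and no strand setting is given for the libraries. Reads in genes came to 1607276, 1754269 and 2872421 in KO1 to KO3, against 1495583, 1597540 and 1732309 in WT1 to WT3. The 10 members held 0.342% to 0.383% of these reads in genes. A count of 0 would allow up to 3 counts, or 1.04 to 2.10 CPM, counting error only. CPM here are counts per 1000000 reads in tested genes, scaled by TMM factors. Trim24 had 3, 2 and 2 reads in KO1 to KO3, against 31, 45 and 44 in WT1 to WT3 (log2 fold change -4.46, SE 0.39, edgeR adjusted p = 2.1e-05). Markers of the pancreas and of macrophages differed between libraries, as given beside the gene lists.

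Ugt1a1 had 152, 101 and 107 CPM in KO1 to KO3, against 232, 306 and 287 CPM in WT1 to WT3. Every knockout library lay below every wild type library, and KO1 was the nearest to them. The means were 120 ± 28 CPM in the knockout and 275 ± 39 CPM in the wild type (SD, n = 3 each). The log2 fold change was -1.20 (SE 0.19, edgeR adjusted p = 0.0019). This was the smallest adjusted p among the members. Ugt1a1 stayed called under all 16 alternative settings, with log2 fold changes between -1.45 and -1.09 and a highest adjusted p of 0.0148. In this bulk RNA, fewer hepatocytes and less Ugt1a1 RNA per hepatocyte cannot be told apart.

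Ugt1a5 was the least abundant member. Its reads numbered 11, 5 and 12 in KO1 to KO3, against 17, 31 and 27 in WT1 to WT3. As CPM these were 6.81, 2.71 and 4.17 in the knockout libraries, against 11.9, 20.5 and 16.03 in the wild type libraries. The groups did not overlap, with the smallest gap between KO1 and WT1. Ugt1a5 averaged 4.57 ± 2.08 CPM in the knockout and 16.1 ± 4.3 CPM in the wild type (SD, n = 3 each). The log2 fold change was -1.84 (SE 0.37, edgeR adjusted p = 0.010). Without WT2 its adjusted p was 0.0638 at a log2 fold change of -1.64, so the call rests on that library.

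Ugt1a9 went the other way. It had 129, 103 and 137 CPM in KO1 to KO3, against 73.3, 81.3 and 89.1 CPM in WT1 to WT3. No wild type library reached the lowest knockout library, KO2. The means were 123 ± 18 CPM in the knockout and 81.3 ± 7.9 CPM in the wild type (SD, n = 3 each). The log2 fold change was 0.60 (SE 0.16, edgeR adjusted p = 0.049). The call was marginal: the adjusted p was 0.0821 without KO1, 0.131 without KO3, 0.158 without WT1, 0.149 without WT2 and 0.107 without WT3, and only without KO2 did it stay under the threshold, at 0.0358. With both KO1 and KO3 left out, only KO2 stood for the knockout and its scatter was taken to be that of the wild type libraries, and the log2 fold change was 0.33 (adjusted p = 0.409). DESeq2 gave an adjusted p of 0.0671 and limma-voom 0.0564.

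Ugt1a6a, of the subfamily that conjugates small planar phenols, had 45.2, 24.4 and 34.8 CPM in KO1 to KO3, against 37.7, 53.6 and 64.1 CPM in WT1 to WT3. The groups overlapped, since KO1 lay above WT1. Its log2 fold change of -0.59 (SE 0.24) did not pass the test (edgeR adjusted p = 0.191). Its near-copy Ugt1a6b, which is not a member, had 29.1, 25.0 and 28.9 CPM in the knockout libraries, against 31.4, 51.6 and 48.7 CPM in the wild type libraries (log2 fold change -0.67, edgeR adjusted p = 0.092). The first coding exons of these 2 genes are 97.0% identical, and reads may have been divided between them by the counting.

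**Figure D1:**
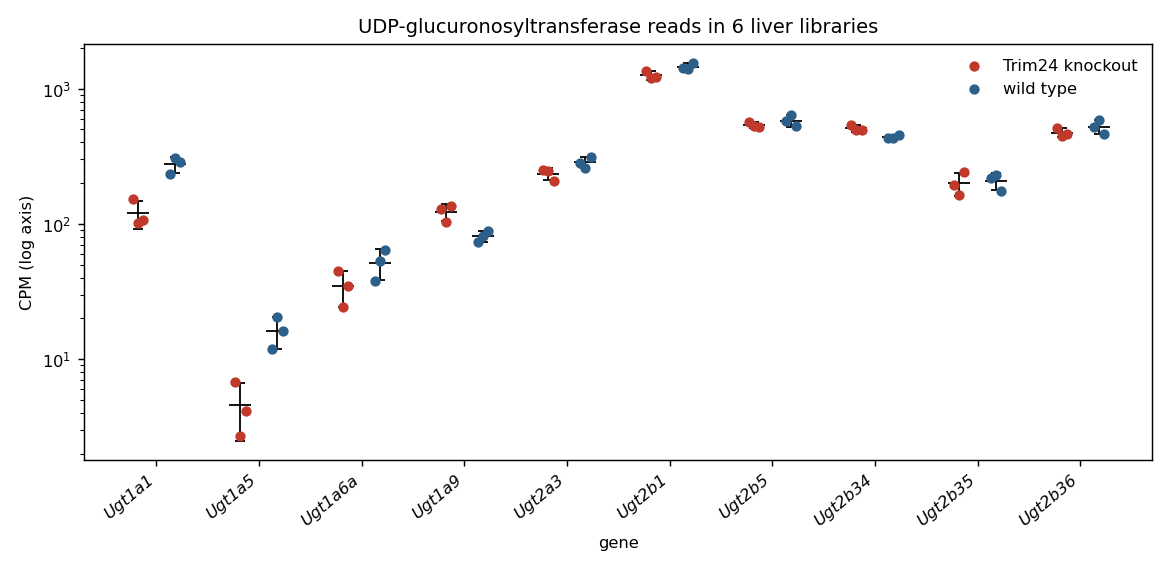
CPM on a log axis for the 10 members, 3 knockout libraries (red) left of 3 wild type libraries (blue) for each gene. Points are libraries, and bars are the mean with SD. Ugt1a1 and Ugt1a5 lie lower in all knockout libraries and Ugt1a9 higher. Ugt2a3 and Ugt2b1 also lie lower and Ugt2b34 higher, by smaller folds that were not called. Ugt1a6a, Ugt2b5, Ugt2b35 and Ugt2b36 overlap.

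The Ugt2 family was the more abundant one and did not pass the test in any member. Its 6 log2 fold changes ran from -0.28 to 0.22, with a lowest edgeR adjusted p of 0.327, and 0 of 6 were under an unadjusted p of 0.05. DESeq2 and limma-voom called 0 of them as well. A p that misses the threshold does not show that the levels were equal. The share of all tested genes under an unadjusted p of 0.05 was not counted. Counts at that threshold, here and for the lists below, therefore have no background to be set against.

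Ugt2b1 was the most abundant of the members. It had 1358, 1191 and 1209 CPM in KO1 to KO3, against 1426, 1395 and 1549 CPM in WT1 to WT3. The groups were apart by less than their own ranges (log2 fold change -0.22, SE 0.14, edgeR adjusted p = 0.436). Ugt2a3, whose human counterpart conjugates bile acids, had 251, 245 and 209 CPM in the knockout libraries, against 281, 260 and 315 CPM in the wild type libraries. Its groups were also narrowly apart (log2 fold change -0.28, SE 0.15, adjusted p = 0.327). Ugt2b34 had 541, 492 and 494 CPM in the knockout libraries, against 432, 428 and 454 CPM in the wild type libraries. It was the only Ugt2 member with a positive log2 fold change, 0.22 (SE 0.14, adjusted p = 0.431), and its groups did not overlap.

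The other 3 Ugt2b members overlapped between the groups. Ugt2b5 had 566.0, 525.9 and 524.6 CPM in KO1 to KO3, against 572.1, 638.2 and 525.5 CPM in WT1 to WT3 (log2 fold change -0.10, SE 0.15, edgeR adjusted p = 0.757). Ugt2b36 had 515, 446 and 459 CPM in the knockout libraries, against 525, 585 and 463 CPM in the wild type libraries (-0.15, SE 0.15, adjusted p = 0.648). Ugt2b35 had 194, 162 and 241 CPM in the knockout libraries, against 218, 231 and 175 CPM in the wild type libraries (-0.06, SE 0.18, adjusted p = 0.892). The sign of the Ugt2b35 difference turned when KO2 or WT2 was left out, or when libraries were scaled by size alone. In all, 6 of the 10 members had groups that did not overlap, against 25% of all tested genes, and 8 of the 10 log2 fold changes were negative. Their median was -0.18, beside 0.0083 over all tested genes.

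**Figure D2:**
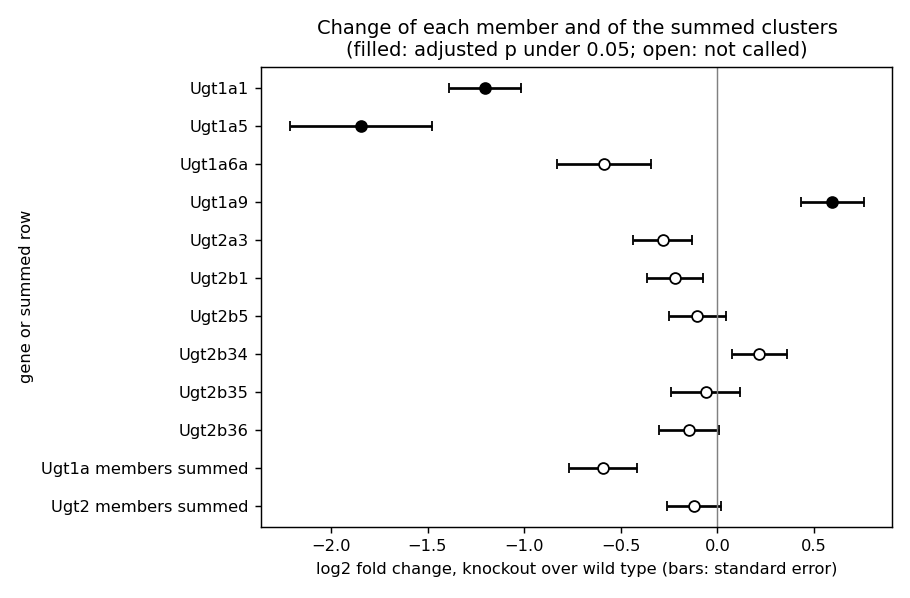
Log2 fold change, knockout over wild type, of each member and of the summed rows, with standard errors, 3 libraries a group. Filled points passed an edgeR adjusted p under 0.05: Ugt1a1 at -1.20, Ugt1a5 at -1.84 and Ugt1a9 at 0.60.

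Because the Ugt1a transcripts share exons, their reads were also summed, which leaves aside how reads were divided between them. The 4 Ugt1a members together had 333, 231 and 282 CPM in KO1 to KO3, against 355, 462 and 456 CPM in WT1 to WT3. All knockout sums lay below all wild type sums, KO1 by little. Fitted as a single row, the sum gave a log2 fold change of -0.59 (SE 0.18) and did not pass (edgeR adjusted p = 0.068). It passed with DESeq2 (-0.59, adjusted p = 0.0364), and without KO1 (-0.73, adjusted p = 0.0324). The 6 Ugt2 members together had 3424, 3062 and 3136 CPM in the knockout libraries, against 3453, 3537 and 3481 CPM in the wild type libraries. That sum differed by -0.12 on the log2 scale (SE 0.14, edgeR adjusted p = 0.682). Ugt1a reads were 9.71%, 7.53% and 9.01% of the number of Ugt2 reads in KO1 to KO3, against 10.3%, 13.1% and 13.1% in WT1 to WT3, with no overlap.

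The make-up of the Ugt1a reads differed between the genotypes. Ugt1a1 took 45.6%, 43.8% and 37.8% of the reads of the 4 Ugt1a members in KO1 to KO3, against 65.4%, 66.3% and 62.9% in WT1 to WT3. Ugt1a9 took 38.7%, 44.5% and 48.4% in the knockout libraries, against 20.7%, 17.6% and 19.5% in the wild type libraries. The Ugt1a1 share was thus 22.5 points lower and the Ugt1a9 share 24.6 points higher in the knockout, and neither pair of groups overlapped. Shares of the 4 members add up to the whole, so a lower share of 1 member means a higher share of the rest together. In CPM, Ugt1a1 averaged 120 in the knockout and 275 in the wild type, and Ugt1a9 averaged 123 and 81.3. Ugt1a9 read counts were 0.849, 1.02 and 1.28 of those of Ugt1a1 in KO1 to KO3, against 0.316, 0.266 and 0.311 in WT1 to WT3. The mean log2 ratio was higher by 1.80 in the knockout, which is a 3.48-fold higher ratio (two-sided exact permutation p = 0.10, the smallest that 3 against 3 libraries allow). Leaving out any 1 library left the Ugt1a9 share difference between 22.3 and 27.2 points.

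The minor Ugt1a members kept low shares. Ugt1a5 made up 2.05%, 1.18% and 1.48% of the Ugt1a reads in the knockout libraries, against 3.35%, 4.44% and 3.52% in the wild type libraries, without overlap. The Ugt1a6a share was 12.2% ± 1.5 in the knockout and 12.1% ± 1.8 in the wild type (SD, n = 3 each), with overlap. Within the Ugt2 reads, Ugt2b34 made up 15.9% ± 0.17 in the knockout and 12.5% ± 0.47 in the wild type (SD, n = 3 each), and its groups were apart. The shares of the other 5 Ugt2 members overlapped. Over the 10 shares tested, the 4 with separate groups had a two-sided exact permutation p of 0.10, which is the smallest possible and 0.25 after adjustment, so that no share could reach the 0.05 threshold.

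**Figure D3:**
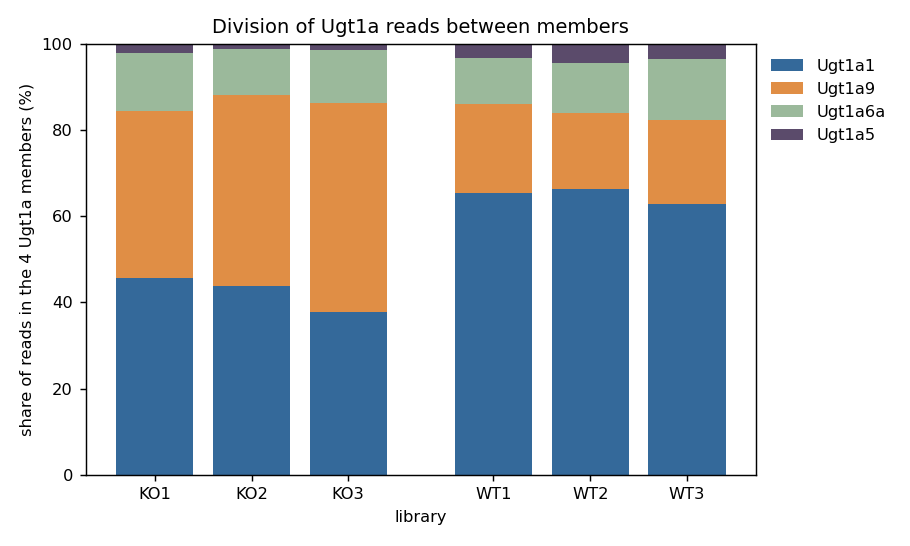
Share of the reads in the 4 Ugt1a members (percent) taken by each, per library, knockout libraries left of wild type libraries. Ugt1a1 held 37.8% to 45.6% in the knockout and 62.9% to 66.3% in the wild type, and Ugt1a9 held 38.7% to 48.4% in the knockout and 17.6% to 20.7% in the wild type.

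Among the 4 Ugt1a members, the 2 that were called lower have the first exons nearest to the shared exons. In the GENCODE M21 annotation of GRCm38 all Ugt1a genes lie on the plus strand of chromosome 1. The first coding exon lies 3.04 kb from the shared exons in Ugt1a1 and 49.0 kb in Ugt1a5, which were lower, and 144 kb in Ugt1a9, which was higher. Ugt1a6a (76.6 kb) and Ugt1a6b (108 kb) lie between them and had intermediate log2 fold changes of -0.59 and -0.67. With 5 genes of a single cluster this order is a description, and it is not strict: Ugt1a5 had a lower log2 fold change than the nearer Ugt1a1, and Ugt1a6b a lower one than the nearer Ugt1a6a. The Ugt2 members lie on chromosome 5, each with 6 coding exons of its own, and Ugt2b35 alone among them is on the plus strand.

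**Figure D4:**
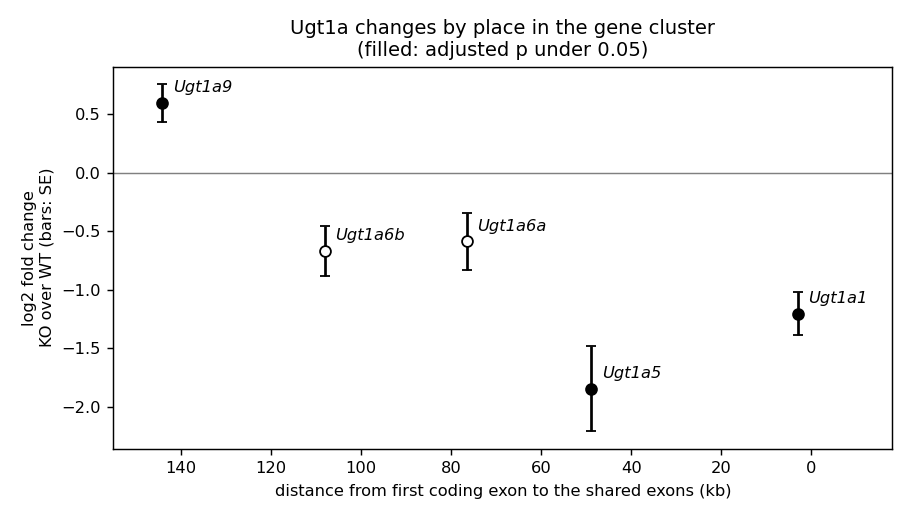
Log2 fold change with standard error against the distance from the first coding exon to the shared exons (kb), for the 5 tested Ugt1a rows. Of these rows, the nearest, Ugt1a1 and Ugt1a5, were called lower and the farthest, Ugt1a9, was called higher, with Ugt1a6a and Ugt1a6b not called in between.

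Likeness in sequence limits how far paralogs can be told apart. The first coding exons of the 4 Ugt1a members are 57.4% to 60.2% identical to each other, whereas those of Ugt1a9 and Ugt1a10 are 91.5% identical. The annotation also gives the first coding exon of Ugt1a6a to a transcript of Ugt1a7c, so that no stretch of 50 bases of Ugt1a6a (0%) is unique to it. Such stretches are 41.8% of the Ugt1a1 transcript, 36.0% of Ugt1a5 and 38.0% of Ugt1a9, the rest being mostly the shared exons. The sources used here do not give how reads in the shared exons were counted. Ambiguous reads numbered 4596 to 9137 per library, more than the 425 to 812 reads in the 4 Ugt1a members. The Ugt1a genes also overlap Gm20528 on the opposite strand, and no strand setting is given for the libraries, so reads of both cannot be told apart there. Among the Ugt2 members identity over the coding sequence was 66.6% to 88.6%. Ugt2b5 had the least unique sequence, with 58.3% of its 50-base stretches, against 96.2% to 100% in the other 5.

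Per length of exon, the order of levels was headed by Ugt2b1 in both genotypes, at 487 ± 36 CPM per kb in the knockout and 566 ± 32 in the wild type (SD, n = 3 each). Ugt2b5 followed, at 290 ± 13 in the knockout and 311 ± 30 in the wild type, and then Ugt2b36, at 230 ± 18 in the knockout and 254 ± 30 in the wild type. The ranges of these last 2 genes overlapped in the wild type but not in the knockout. Ugt1a1 ranked 8th of the members in the knockout, at 53.9 ± 12.5 CPM per kb, and 5th in the wild type, at 124 ± 17. Just above it in the knockout order came Ugt1a9 at 56.0 ± 8.2 and Ugt2b35 at 59.2 ± 11.8, and the ranges of all 3 overlapped. Above these, Ugt2b34 at 118 ± 6 and Ugt2a3 at 111 ± 11 overlapped as well. In the wild type its range overlapped those of Ugt2a3 at 135 ± 13 and Ugt2b34 at 102 ± 3, while Ugt2b35 at 62.0 ± 8.7 and Ugt1a9 at 37.1 ± 3.6 stood apart from their neighbours. Ugt1a6a and Ugt1a5 were the lowest, at 8.07 ± 2.41 and 2.07 ± 0.94 in the knockout and at 12.01 ± 3.08 and 7.32 ± 1.96 in the wild type. Divided by coding length instead, Ugt2b34 ranked 3rd in the knockout and 4th in the wild type. The places of the Ugt1a members depend on how reads in their shared exons were counted, which is not known. Per kb of the first coding exon alone, Ugt1a1 had 138 ± 32 CPM in the knockout and 316 ± 44 in the wild type. By that length Ugt1a9 had 145 ± 21 in the knockout and 95.7 ± 9.3 in the wild type.

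Of the 11 other Ugt rows, 5 could be tested. Ugt3a1, which in humans uses UDP-N-acetylglucosamine in place of UDP-glucuronic acid, had 12.4, 10.9 and 14.6 CPM in KO1 to KO3, against 63.6, 86.6 and 72.4 CPM in WT1 to WT3. It fell by 2.53 on the log2 scale (SE 0.21, edgeR adjusted p = 1.5e-05). Its neighbour in name Ugt3a2 had 446, 302 and 293 CPM in the knockout libraries, against 476, 705 and 539 CPM in the wild type libraries (log2 fold change -0.73, adjusted p = 0.0505), and passed with DESeq2 (adjusted p = 0.0145) and limma-voom (adjusted p = 0.0472). Ugt2b37 (0.76, adjusted p = 0.229) and Ugt2b38 (-0.81, adjusted p = 0.351) did not pass. Ugt1a2, Ugt1a7c, Ugt1a10, Ugt2a1, Ugt2a2 and Ugt8a had 0 to 9 reads in any library and were not tested.

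The 3 genes whose profile over the 6 libraries was most like that of Ugt1a1 were Oat, Abhd15 and Cdo1. Their centred log2 CPM differed from that of Ugt1a1 by a root mean square of 0.136, 0.141 and 0.146, the smallest among 7724 genes with a mean of at least 10 CPM. Oat, ornithine aminotransferase, had 342, 309 and 284 CPM in KO1 to KO3, against 676, 827 and 786 CPM in WT1 to WT3. Cdo1, cysteine dioxygenase, had 396, 312 and 271 CPM in the knockout libraries, against 770, 835 and 735 CPM in the wild type libraries. Both were chosen for this likeness, so their difference between the genotypes is a description.

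Genes that act before and after glucuronidation were taken from lists. Among 14 tested genes for the supply of UDP-glucuronic acid and its other uses, 1 was higher and 0 were lower, with a median log2 fold change of -0.11. The gene that passed was Rgn, which encodes regucalcin, a gluconolactonase of vitamin C synthesis, with 2777, 2740 and 2572 CPM in the knockout libraries, against 1547, 1305 and 1397 CPM in the wild type libraries (0.93, SE 0.15, edgeR adjusted p = 0.0020). Ugdh, which makes UDP-glucuronic acid, was not called (0.34, adjusted p = 0.297), nor was Ugp2, which makes UDP-glucose (-0.34, adjusted p = 0.243). Of 10 tested genes of haem synthesis and breakdown, bilirubin formation and haem carriage, 0 were called either way, with a median of 0.022. Their most abundant genes were the haem and haemoglobin carriers Hpx (0.59, adjusted p = 0.156) and Hp (0.69, adjusted p = 0.063). Among 14 tested sulphotransferases and other conjugating enzymes, 0 were called and the median was 0.033, with Glyat at 0.04. At an unadjusted p under 0.05 there were 3 genes of this haem list and 2 conjugating enzymes. DESeq2 and limma-voom each called 1 gene of the haem list, higher, and 0 conjugating enzymes. The 0 for the haem list held in 7 of 16 alternatives.

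In a list of transporters of conjugates and related compounds, not all of them carriers of glucuronides or bilirubin, 4 of 8 tested genes were lower and 0 higher. The median log2 fold change was -0.65, with a negative value in all 8. Abcc3, which exports glucuronides from hepatocytes into blood, had 120, 70.0 and 125 CPM in KO1 to KO3, against 302, 406 and 365 CPM in WT1 to WT3 (-1.77, SE 0.21, edgeR adjusted p = 0.00034). The uptake carrier Slco1a4 fell by 1.80 (SE 0.26, adjusted p = 0.0013). Slco1a1, another uptake carrier, fell by 0.80 (adjusted p = 0.0124), and its adjusted p was 0.0510 without WT2 and 0.0597 without WT3. Abcc6 fell by 1.37 (adjusted p = 0.035), a call kept only without KO1 among the single libraries left out, with adjusted p of 0.0654 to 0.151 without WT1, WT2, WT3, KO2 or KO3. Thus 2 transporters were called without WT2 and 2 without WT3. Abcc2, which carries bilirubin glucuronides into bile, was not called (-0.16, adjusted p = 0.682), nor was Slco1b2 (-0.51, adjusted p = 0.127).

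Of 19 tested known regulators of Ugt genes, mostly transcription factors, 1 was higher and 1 lower, with a median of -0.20. Nfe2l2, which encodes NRF2, averaged 68.6 ± 7.2 CPM in the knockout and 39.1 ± 6.0 CPM in the wild type (SD, n = 3 each; 0.82, edgeR adjusted p = 0.0157), and was not called without WT2 (adjusted p = 0.0852), WT3 (0.0703) or KO3 (0.0512). Cebpa averaged 114 ± 13 CPM in the knockout and 170 ± 16 CPM in the wild type (-0.58, adjusted p = 0.0436), and was called without KO1 but lost with any other single library left out (adjusted p 0.0690 to 0.172). The CAR gene Nr1i3 (-0.64, adjusted p = 0.163), the PXR gene Nr1i2 (-0.33, adjusted p = 0.335) and Ppara (-0.34, adjusted p = 0.505) did not pass.

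Targets of these regulators went both ways. Of 12 tested CAR and PXR inducible genes, 2 were higher and 2 lower, with a median of 0.11. Cyp2b9 averaged 8.36 ± 3.04 CPM in the knockout and 0.664 ± 0.701 CPM in the wild type (edgeR adjusted p = 0.0056). It had 10, 13 and 34 reads in KO1 to KO3, against 2, 0 and 1 in WT1 to WT3, so the size of its change is uncertain. Gstm3 averaged 122 ± 23 CPM in the knockout and 67.7 ± 3.2 CPM in the wild type (adjusted p = 0.0095). Cyp2b10 fell by 1.67 (adjusted p = 0.0285) and Cyp3a25 by 1.15 (adjusted p = 0.0368), and neither was called without WT2, WT3, KO2 or KO3 (adjusted p 0.0705 to 0.172). DESeq2 did not call Cyp3a25 (adjusted p = 0.145), nor limma-voom Cyp2b10 (0.0769). Among 10 tested NRF2 targets, 2 were higher, Ephx1 (0.92, adjusted p = 0.0035) and Txnrd1 (0.67, adjusted p = 0.0192), and 1 was lower, Me1 (-1.32, adjusted p = 0.00056), with a median of 0.27. Txnrd1 was not called without WT2 (adjusted p = 0.0715), WT3 (0.122) or KO3 (0.0550). Of 3 tested AHR targets 0 were called, with Cyp1a2 at -0.58 (adjusted p = 0.0558) and Tiparp at 0.31, while 2 had an unadjusted p under 0.05, and DESeq2 and limma-voom each called Cyp1a2 lower.

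**Figure D5:**
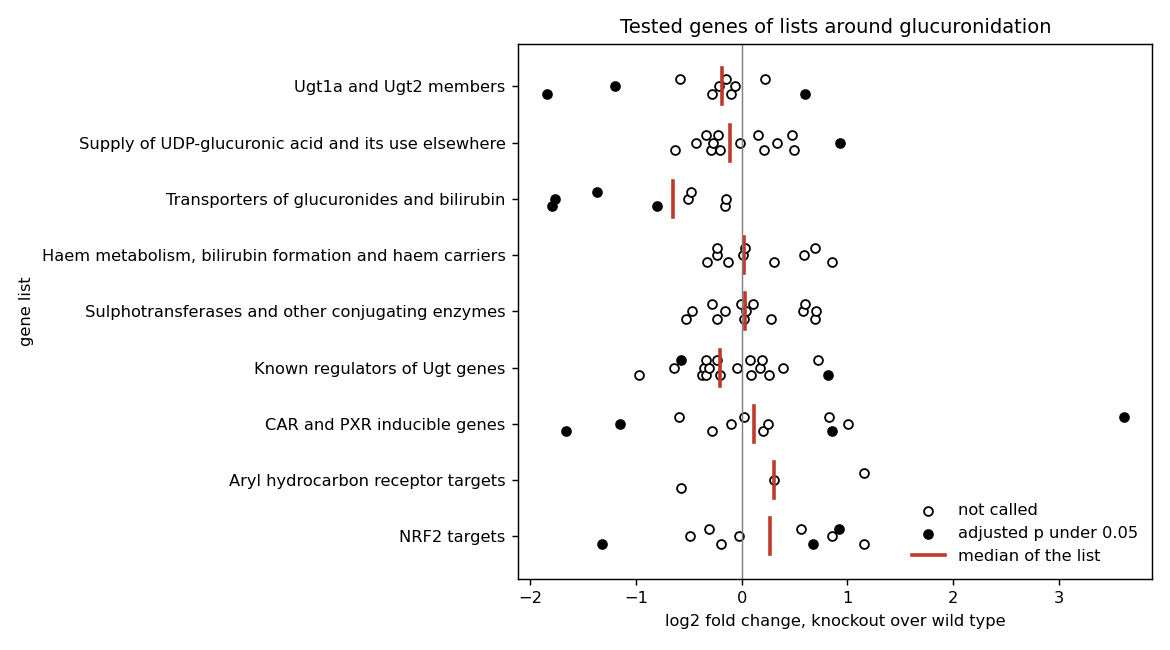
Log2 fold change, knockout over wild type, of the tested genes of each list. Filled points passed an edgeR adjusted p under 0.05, and red lines mark list medians. The 8 transporters are all negative with a median of -0.65, and the members' median is -0.18.

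Markers of other cell types moved in part with genotype. The summed CPM of 9 hepatocyte markers was 101789, 76122 and 106231 in KO1 to KO3, against 126754, 110568 and 119277 in WT1 to WT3, and 1 of them, Cyp2e1, was called lower (-1.18, edgeR adjusted p = 0.0040). Of these 9, 8 had a negative log2 fold change and 1 a positive one, with a median of -0.38. In edgeR 6 of the 9 had an unadjusted p under 0.05. Kupffer cell and macrophage markers summed to 342, 615 and 626 CPM in the knockout libraries, against 200, 370 and 295 CPM in the wild type libraries, with 3 of 12 tested called higher (C1qc, Mpeg1 and Ctss) and 0 lower. Each of these 3 calls was lost without WT1, without WT3 and without at least 1 knockout library, at adjusted p of 0.0685 to 0.113. All 12 tested macrophage markers had a positive log2 fold change, with a median of 0.80. In edgeR 9 of the 12 had an unadjusted p under 0.05, and the share of all tested genes under it was not counted. Pancreatic acinar markers, 20 in the tables with Prss1 and Amy2a5 at 0, summed to 1053, 14.1 and 687 CPM in KO1 to KO3, against 39.1, 15.9 and 12.5 CPM in WT1 to WT3. Of these, Cela1 alone was tested and was higher (1.78, adjusted p = 0.0456), with a value of -0.12 once KO1 and KO3 were left out, and it was not called by DESeq2 (adjusted p = 0.160). Intestinal markers summed to 48.8 to 76.2 CPM in the knockout and 56.2 to 90.8 CPM in the wild type, nearly all of it Fabp2, with Cdx1 at 0. Of 4 tested cholangiocyte markers 0 were called by edgeR, DESeq2 or limma-voom and 0 had an unadjusted p under 0.05, with Pkhd1 at 0.36 and Spp1 at 0.17. Among 10 tested endothelial markers Tek was higher (1.68) and Stab2 (-0.91) and Ehd3 (-0.84) were lower. Stab2 was not called without WT2 (adjusted p = 0.0681) or WT3 (0.0649), nor Ehd3 without WT1 (0.0526), WT3 (0.0974) or KO2 (0.0742).

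In KO2, the knockout library without raised acinar markers, Ugt1a1 and Ugt1a5 stood at their lowest levels. KO2 also had the lowest sum of hepatocyte markers, 76122 CPM, against 101789 in KO1 and 106231 in KO3. Ugt1a6a and Ugt1a9 had their lowest knockout levels there as well. Without KO1 and KO3 the log2 fold change was -1.45 for Ugt1a1 (edgeR adjusted p = 0.0025) and -2.55 for Ugt1a5 (adjusted p = 0.0156), both larger in size than with all libraries. These p-values compare 1 knockout library with 3 wild type libraries, with the scatter taken from the wild type alone. Ugt1a9 stood highest in KO1 and KO3, and its value without them is given above. The part of the hepatocyte and macrophage markers in the members' differences was not tested.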

How the data were processed

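Read counts per gene symbol were deposited by the authors for each library, with no normalization. TopHat 1.4.1, HTSeq and edgeR, and the assembly mm9, are listed per the submitters' processing notes, which give no role for any of them. Rows of the counter for reads in no gene (93.3% to 95.8% of counted reads) and ambiguous reads (0.0130% to 0.0213%) entered neither library sizes nor tests. Multiply aligned reads were listed at 0 in all files, so reads that fit several paralogs may be missing. No column of values was left unused (0).

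Tests used edgeR 4.0.16 (R 4.3.3), with its quasi-likelihood fit, TMM scaling, filterByExpr at a minimum count of 10 and a single genotype term. Adjusted p is Benjamini-Hochberg over 9180 tested genes, and a gene was called under 0.05. Positive log2 fold changes mean higher in the knockout, and each standard error is that change divided by the root of its F value. Shares were compared by exact permutation over libraries. Alternatives used DESeq2 1.42.0, limma 3.58.1 (voom), other scalings, filters and thresholds, the replicate number as a block, and left-out libraries. The per-gene test was also tested on simulated counts.

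Lengths, distances and identities came from GENCODE M21 on GRCm38 and promoters from RefSeq on GRCm38.p6, so no coordinate was joined to the mm9 counts. The members and the 18 lists were chosen with earlier results of these data known. Named genes were the 10 members, Trim24, the other Ugt rows, up to 4 called genes of each list (the 2 most abundant where none was called) and the 3 genes most like Ugt1a1. Some genes that this rule names and 1 list are not reported here. Ugdh, Ugp2, Abcc2, Slco1b2, Nr1i3, Nr1i2 and Ppara were named after their values were seen. Python 3.11.15 with Biopython 1.88 was used for sequences.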

Additional observations from a re-analysis of the deposited data

How the results depend on the processing

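The count of members called higher was 1, Ugt1a9, and 0 with RLE factors, DESeq2, limma-voom, a filter of 1 CPM in 3 libraries, the replicate block, or KO1 and KO3 left out. Leaving out single libraries gave 0 to 1 called higher and 1 to 2 called lower, with 1 called lower without WT2. The Ugt1a sum passed with DESeq2 (-0.59), with no expression filter (-0.61), at a threshold of 0.10 (-0.59) and, with KO2 as the lone knockout library and the scatter taken from the wild type, without KO1 and KO3 (-0.88), and ran from -0.73 to -0.46 with single libraries left out. The Ugt2 sum did not pass in any of its 17 alternatives. Sums over all Ugt1a or Ugt2 rows, added after seeing the data, gave -0.59 and -0.12. Signs turned for Ugt2b35 (0.0283 with library size alone, and from -0.23 to 0.0715 with single libraries left out, positive without WT2 or KO2), for Cela1 (-0.12 without KO1 and KO3), and, with single libraries left out, for shares of reads that hardly differed: Ugt1a6a (-0.67 to 1.05 points), Ugt2b5 (-0.49 to 0.98), Ugt2b35 (-0.48 to 0.71) and Ugt2b36 (-1.12 to 0.50). The cause was not tested.

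No pairing by replicate number was visible: same-numbered libraries deviated with r = -0.073, 0.079 and 0.035 across genes. Differently numbered libraries had r from -0.12 to 0.089. With the replicate block the Ugt1a9 call was lost (log2 fold change 0.59, edgeR adjusted p = 0.054), and 295 genes were higher and 250 lower, against 283 and 243 without it. Scaling by library size alone gave 373 higher and 172 lower and moved the median of all genes to 0.10. Without a filter 576 were higher and 509 lower, at a threshold of 0.10 445 and 437, and with single libraries left out 127 to 409 were higher and 95 to 363 lower. Levels of Ugt1a members per kb were larger when divided by the first coding exon alone, a length added after seeing the data. Their order against the Ugt2 members therefore depends on the length used. Ugt1a5 rests on 5 to 31 reads per library, the depth limit among the members.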

Other observations

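Liver genes known to differ between the sexes in mice were called in both directions, 3 higher and 2 lower of 10 tested, with a median log2 fold change of -0.24. The list was not split by the sex in which a gene is higher. The 3 higher were Cyp2b9 (3.61, with 2, 0 and 1 reads in WT1 to WT3), Mup20 and Cyp7b1, and Slco1a1 (-0.80) was among the lower. Mup20, a urinary pheromone carrier, averaged 10509 ± 1018 CPM in the knockout and 6591 ± 533 CPM in the wild type (SD, n = 3 each; edgeR adjusted p = 0.0192), and was not called without WT1, WT2, WT3 or KO3 (adjusted p 0.0588 to 0.0921). Cyp7b1, an oxysterol hydroxylase, averaged 1008 ± 154 CPM in the knockout and 625 ± 93 CPM in the wild type (adjusted p = 0.0307), and was not called without WT1, WT3, KO1 or KO3 (adjusted p 0.0663 to 0.149). Of 5 tested sex-linked transcripts 0 were called by edgeR, DESeq2 or limma-voom and 1 had an unadjusted p under 0.05, Eif2s3y. The Y-linked Ddx3y was present in all 6 libraries, at 190 to 245 CPM in the knockout and 148 to 193 CPM in the wild type.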
